A study of Mus musculus with 30 samples.

Results

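Fecal bacteria of mice on a high-fructose diet (HFru) were compared with those of mice on a normal diet, over all bacterial families and all single sequence variants. The comparison used 12 of the 30 mice of the study, 6 in the control group and 6 in the model group, and a mouse entered by its group label alone. All 12 were female C57BL/6 mice (C57BL/6J in the methods) labelled as 6-week, which in the methods is their age on purchase and not that at sampling, and every mouse of both groups was given saline by gavage each day. Control mice ate the normal diet, and model mice ate HFru, which held 60% fructose with casein, cellulose and lard. The contents of the normal diet are not given in the sources used here, so fructose cannot be told apart from the other constituents of HFru. Feeding lasted 8 weeks in the methods and 12 weeks in the figure legends. The 3 groups on HFru that were given salidroside, tyrosol or hydroxytyrosol were not compared here. Each mouse gave 1 fecal sample, the labels name no cage or sequencing batch, and a mouse is called below by its group and the number in its title.

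The gene of the 16S ribosomal RNA is present in all bacteria, and its sequence places a bacterium in a family and often in a genus. Most bacteria of the mouse large bowel are obligate anaerobes such as S24-7, Lachnospiraceae and Ruminococcaceae, which ferment fibre and mucus sugars. Lactobacilli and enterococci also live there and tolerate oxygen, while Acinetobacter (family Moraxellaceae) and Sporosarcina (Planococcaceae) are genera of soil, water and skin that grow with oxygen. An amplicon sequence variant (ASV) is 1 distinct 16S sequence left after read errors were removed, and several ASVs can come from 1 bacterial strain. ASVs are called here by genus or family and by the rank of their mean share over the 12 mice within it. A share is a percent of all counts of a mouse, so a loss of 1 family and a gain of the others cannot be told apart.

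The 12 mice held 7652 ASVs in 169 families, of which 106 have a family name in the authors' taxonomy, and 2.45% of the counts carried no named family. Control mice had 41862 to 83876 counts (median 73619) and model mice 87731 to 104427 (median 98991). A count of 0 allowed a share of up to 3 counts, which is 0.00287% to 0.00717% of a mouse's total, and the 95% Wilson interval of a named family's share in 1 mouse was at most 0.918 points wide. Both express counting error alone, because copies of a molecule made by PCR could not be recognised. The share of merged reads that the authors removed as chimeric (joined from 2 templates) had a mean of 34.7% ± 5.67 over control mice (SD, n = 6) and of 19.1% ± 7.01 over model mice (SD, n = 6; exact permutation test, two-sided, p = 0.0043). Its part in the differences below was not tested. Sequences of chloroplasts and mitochondria were 4 ASVs with 0 counts in control mice and 10 in model mice. Identical counts were found in 0 of 30 pairs of mice of the same group.

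Mouse 6 of each group was unlike most of its group in its main families. Control mouse 6 held 56.1% Moraxellaceae (95% Wilson interval 55.8 to 56.5) and 0.374% S24-7 (0.335 to 0.418), and its commonest ASV, Acinetobacter ASV 1, was also the commonest of model mice 1 to 5. Model mouse 6 held 0.601% Moraxellaceae (0.555 to 0.650) and 42.0% Planococcaceae (41.7 to 42.3), with Sporosarcina as its commonest ASV at 31.1%. Control mouse 1 was like control mouse 6 in these 2 families, with 47.5% Moraxellaceae and 0.686% S24-7, but its commonest ASV was Acinetobacter ASV 5, and Acinetobacter ASV 1 was at 0.743% there against 24.5% in control mouse 6. Mice are grouped by their labels, and whether labels of samples were exchanged was not tested. All 12 mice stay in the results, and values without both mice numbered 6 are given beside some of the families they moved. That omission was chosen after the values were seen and because of them, so it is a description and no test is drawn from it. The plot of family composition shows the 17 families with a mean share of at least 1% in either group.

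**Figure D1:**
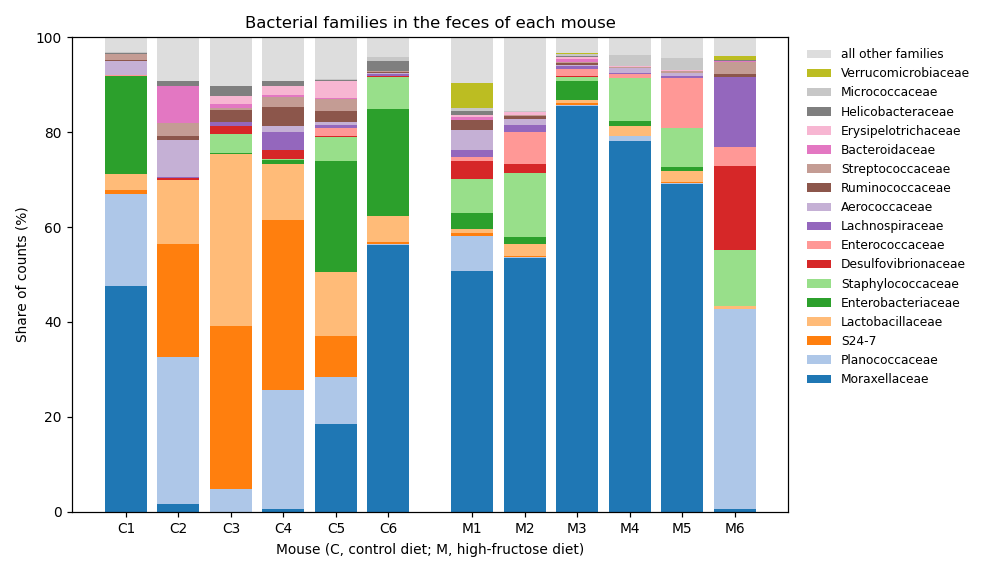
Share of counts (%) of the 17 families with a mean share of at least 1% in either group, stacked for each of the 6 control mice (C1 to C6) and 6 model mice (M1 to M6), with all other families in grey. Moraxellaceae filled 50.8% to 85.5% of the counts of model mice 1 to 5, but 0.601% in model mouse 6, while control mice 1 and 6 held 47.5% and 56.1%.

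Among the called families, S24-7, the main Bacteroidetes family of the mouse gut, had the largest change in mean share and fell. The 3 smaller families of the same order, [Odoribacteraceae], Prevotellaceae and [Paraprevotellaceae], fell with it, as did Clostridiaceae. Verrucomicrobiaceae, the family of the mucus-degrading Akkermansia, rose from 0 counts in every control mouse, and Enterococcaceae rose with 3 families of aerobes at low shares. By edgeR's quasi-likelihood test (adjusted p under 0.05), 10 of the 58 families tested were called, which is 17.2%, with 5 higher (8.62%) and 5 lower (8.62%) in model mice, and 24 were called without control mouse 6. A family was tested when at least 4 of the 12 mice had at least 10 of its counts, and the families tested held at least 97.2% of the counts of every mouse. Of the 10 called families, 3 (Caulobacteraceae, Verrucomicrobiaceae and Clostridiaceae) reached 10 counts in mice of 1 group only and passed that filter through the group in which they were high.

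S24-7 ranged from 0.374% to 35.8% (median 16.1%) in control mice and from 0.0195% to 0.605% (median 0.190%) in model mice. Model mice 1 and 3 lay above control mouse 6, and a model mouse was the higher in 2 of 36 pairs. The means were 17.2% ± 16.2 (SD, n = 6) and 0.252% ± 0.228 (SD, n = 6), and the fitted log2 fold change was -4.90 (SE 1.46, edgeR adjusted p = 0.018). The difference in mean share, -17.0 points, had an exact permutation p of 0.0065 and an adjusted p of 0.0753 over the 58 families, so the call rests on the count model. Without both mice numbered 6, the means were 20.6% and 0.264%.

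The 3 smaller Bacteroidetes families called lower were rare or absent in model mice. [Odoribacteraceae], which ferments to butyrate among other acids, ranged from 0% to 2.26% (median 0.605%) in control and from 0% to 0.0262% (median 0.00204%) in model mice, a log2 fold change of -6.23 (SE 1.73, edgeR adjusted p = 0.014). Prevotellaceae, degraders of plant polysaccharides, reached 1.22% in control mice and had counts in 2 of 6 model mice, with at most 0.0195% (log2 fold change -6.11, SE 1.87, edgeR adjusted p = 0.019). Control mouse 6 was at 0 counts of both families, so the groups overlapped. [Paraprevotellaceae] ranged from 0% to 0.993% in control and from 0% to 0.0120% in model mice (log2 fold change -5.05, SE 1.82, edgeR adjusted p = 0.045), and this call was lost without any of 7 of the mice left out in turn, with control mouse 2 moving it most, to -3.52 (adjusted p = 0.134). Bacteroidaceae, the family of Bacteroides, was not called, at 1.52% ± 3.09 (SD, n = 6) in control and 0.244% ± 0.301 (SD, n = 6) in model mice.

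Clostridiaceae, anaerobes that form spores, had shares that did not overlap between the groups, by a margin smaller than what 1 count is worth. Its shares were 0.00554% to 0.270% (median 0.0952%) in control mice and 0% to 0.00541% (median 0%) in model mice, where 4 of 6 mice had 0 counts. The lowest control mouse and the highest model mouse were nearly level, and the log2 fold change was -5.86 (SE 1.87, edgeR adjusted p = 0.024). The call was lost without model mouse 1 (adjusted p = 0.053) or model mouse 3 (adjusted p = 0.053). Family shares of the 6 model mice lay wholly below those of the 6 control mice in 2 of 58 families (3.45%) and wholly above in 2 (3.45%).

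Lactobacillaceae, which make lactate and attach to the forestomach of mice, was the other family wholly below. It ranged from 3.43% to 36.2% (median 12.6%) in control and from 0.517% to 2.69% (median 1.54%) in model mice, and each model mouse was under each control mouse. The difference in mean share was -12.4 points (exact permutation test, two-sided, p = 0.00216, the smallest that 6 against 6 mice can give, adjusted p = 0.0314). The count model, which scales each mouse by its other families, gave a log2 fold change of -1.99 (SE 1.27, edgeR adjusted p = 0.261) and did not call it. By shares alone, 4 of 58 families passed an adjusted p of 0.05 (6.9%), namely Lactobacillaceae, Clostridiaceae, Verrucomicrobiaceae and Caulobacteraceae, all 4 at this smallest p, and 18 passed it unadjusted. The adjusted p of each of the 4 depends on how many families are tied at this smallest p. Clostridiaceae and Caulobacteraceae reached it by margins smaller than what 1 count is worth. The adjusted count fell to 0 when the totals left out Moraxellaceae and in the table before singleton removal. With a mouse left out the smallest exact p is 0.00433, at which 4 families cannot pass the adjustment over 58, so a fall to 0 in such omissions says nothing about these calls. The count was 12 without control mouse 6 and 6 without control mouse 5.

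Verrucomicrobiaceae had 0 counts in all 6 control mice and counts in all 6 model mice. The shares in model mice 1 to 6 were 5.36%, 0.0379%, 0.217%, 0.00307%, 0.0335% and 0.751%. Model mouse 4 was near the limit of detection, and model mouse 1 held most of the group's counts. Against the limit of 3 counts per control mouse, the model mean of 1.07% was at least 240.2-fold higher, and at least 47.0-fold without model mouse 1 (edgeR adjusted p = 4.29e-05). Akkermansia ASV 1, assigned to Akkermansia muciniphila, held most of these counts, with a mean share of 0.984% in model mice.

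Enterococcaceae, facultative anaerobes that ferment sugars to lactate, rose in model mice. Its shares were 0% to 1.69% (median 0.0714%) in control and 0.674% to 10.5% (median 2.80%) in model mice, and only control mouse 5 lay within the range of the model mice. The means were 0.329% ± 0.668 (SD, n = 6) and 4.02% ± 3.94 (SD, n = 6), with a log2 fold change of 5.39 (SE 1.53, edgeR adjusted p = 0.014) and a higher model mouse in 33 of 36 pairs. Without TMM scaling (edgeR's correction of the totals for a few dominant taxa), the adjusted p was 0.0705.

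Caulobacteraceae, Sphingomonadaceae and Brucellaceae are aerobic Proteobacteria of water and soil, and the means of all 3 were set by model mouse 2. Caulobacteraceae was at 3.63% there and at 0.00479% to 0.0900% in the other model mice, against 0% to 0.00477% in control mice, so that the groups did not overlap by a margin smaller than what 1 count is worth (log2 fold change 9.11, SE 2.0, edgeR adjusted p = 0.00103). Sphingomonadaceae was at 0.410% in model mouse 2, at 0% to 0.0239% in the other model mice and at 0% to 0.0162% in control mice (log2 fold change 5.90, SE 1.96, edgeR adjusted p = 0.029). Brucellaceae was at 3.21% in model mouse 2, at 0.00205% to 0.150% in the other model mice and at 0.0123% to 0.0548% in control mice (log2 fold change 4.61, SE 1.55, edgeR adjusted p = 0.029). Without model mouse 2 the change of Brucellaceae was 1.98 (adjusted p = 0.319), and Caulobacteraceae and Sphingomonadaceae no longer had enough counts to be tested. The call of Sphingomonadaceae was also lost without control mouse 1, 2 or 4 (adjusted p = 0.0504 to 0.0629) and that of Brucellaceae without control mouse 1, 2, 4 or 5 (adjusted p = 0.0518 to 0.0681). Both calls were lost without TMM scaling (adjusted p = 0.0706 and 0.0546), with centred log-ratios (log2 differences of 2.49 and 1.29, adjusted p = 0.244 and 0.481) and with no filter on low counts (adjusted p = 0.0692 and 0.0667), and that of Sphingomonadaceae with Moraxellaceae left out of the totals (adjusted p = 0.0527).

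**Figure D2:**
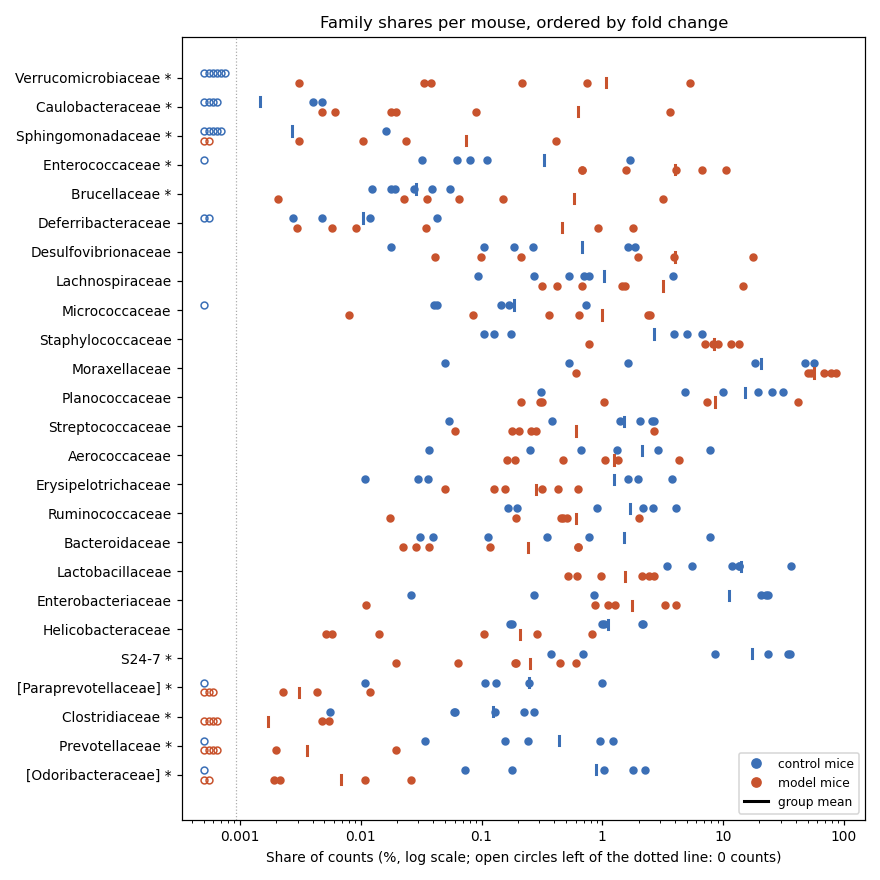
Share of counts (%, log scale) of the 25 named families in each control mouse (blue) and model mouse (orange), in order of the fitted log2 fold change, with the largest rise at the top. Vertical bars are group means (not drawn where the mean is 0), open circles left of the dotted line are mice with 0 counts, and an asterisk marks the 10 families called by edgeR. Verrucomicrobiaceae and Caulobacteraceae lie wholly above, and Lactobacillaceae and Clostridiaceae wholly below, the control mice.

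The commonest family was not called. Moraxellaceae ranged from 0.0501% to 56.1% (median 10.1%) in control mice and from 0.601% to 85.5% (median 61.2%) in model mice, and a model mouse was the higher in 30 of 36 pairs. Its means were 20.7% ± 25.2 (SD, n = 6) and 56.2% ± 30.4 (SD, n = 6), a difference of 35.5 points (exact permutation test, two-sided, p = 0.0563, adjusted p = 0.172), and the log2 fold change was 1.699 (SE 1.71, edgeR adjusted p = 0.485). Both mice numbered 6 lay on the side of the other group. Without them the means were 13.6% ± 20.4 (SD, n = 5) and 67.4% ± 15.1 (SD, n = 5).

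Planococcaceae, aerobic spore formers for the most part, gave opposite signs by mean share and by fold change. It ranged from 0.312% to 31.1% (median 14.7%) in control mice and from 0.213% to 42.0% (median 0.677%) in model mice. The difference in mean share was -6.61 points (exact permutation test, two-sided, p = 0.455), while the log2 fold change was 0.62 (SE 1.38, edgeR adjusted p = 0.765), and neither was called. Model mouse 6 held 42.0% and the next model mouse 7.31%. Without both mice numbered 6 the log2 fold change was -3.01.

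Among other common families, Staphylococcaceae (skin and mucosal cocci) was at 2.68% ± 2.92 (SD, n = 6) in control and 8.40% ± 4.43 (SD, n = 6) in model mice, higher in 33 of 36 pairs, with an exact permutation p of 0.0238 and an adjusted p of 0.106, and its log2 fold change of 1.75 was 3.20 without both mice numbered 6. Enterobacteriaceae, the family of Escherichia and Shigella, was at 11.3% ± 11.99 (SD, n = 6) and 1.77% ± 1.56 (SD, n = 6), with control mice 1, 5 and 6 at 20.6% to 23.5% and the other control mice at 0.0263% to 0.850%, so the groups overlapped (exact permutation test, p = 0.173). Helicobacteraceae, spiral bacteria of the mucus, was at 1.12% ± 0.893 (SD, n = 6) and 0.208% ± 0.323 (SD, n = 6) (exact permutation p = 0.0238, adjusted p = 0.106). Neither Staphylococcaceae nor Helicobacteraceae was called by edgeR, with adjusted p = 0.389 and 0.130. Desulfovibrionaceae, which reduce sulfate to sulfide, and Lachnospiraceae had higher means in model mice (4.0% against 0.677%, and 3.17% against 1.03%), both set by model mouse 6 with 17.7% and 14.6%. Their edgeR adjusted p was 0.0609 and 0.117, and without both mice numbered 6 the means were 1.26% in model and 0.791% in control mice for Desulfovibrionaceae (log2 fold change 0.91 instead of 3.75) and 0.879% and 1.13% for Lachnospiraceae, whose difference in mean share thus turned from positive to negative.

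The remaining named families showed no call in either test. Aerococcaceae, Ruminococcaceae, Streptococcaceae, Erysipelotrichaceae and Micrococcaceae had mean shares of 2.14%, 1.68%, 1.52%, 1.24% and 0.187% in control mice and 1.25%, 0.609%, 0.609%, 0.285% and 1.0% in model mice, with edgeR adjusted p from 0.203 to 0.963. Streptococcaceae had opposite signs by fold change (0.34) and by difference in mean share (-0.915 points), with model mouse 6 at 2.67% and the other model mice at 0.0602% to 0.282%, and without both mice numbered 6 the values were -1.98 and -1.62 points. Micrococcaceae, skin and soil Actinobacteria, passed the threshold without control mouse 6 (log2 fold change 5.75, adjusted p = 0.011) or without model mouse 2 (4.21, adjusted p = 0.022). Without both mice numbered 6 its log2 fold change was 5.42 instead of 2.55. Deferribacteraceae, the family of the mucus dweller Mucispirillum, was at 0.0104% ± 0.0166 (SD, n = 6) in control and 0.462% ± 0.749 (SD, n = 6) in model mice, and its adjusted p of 0.0614 came with 1.80% in model mouse 1 and 0.919% in model mouse 6. It passed the threshold in 10 of 22 alternative settings, among them without control mouse 6 and without model mouse 2, 3 or 4.

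Families were also grouped by their known use of oxygen. Of the listed obligate aerobes, 12 of 15 could be tested, with a median log2 fold change of 2.93 against 0.60 over all 58 families. Of these 12, 3 rose and 0 fell, where 8.62% of all families tested were called higher and 8.62% lower. The 3 were Caulobacteraceae, Sphingomonadaceae and Brucellaceae, none of which was called without model mouse 2, and Caulobacteraceae passed the filter through model mice alone. The summed share of the listed aerobes was 5.01% to 68.3% in control and 43.0% to 87.6% in model mice. Moraxellaceae made up most of it in control mice 1, 5 and 6 and in model mice 1 to 5, and Planococcaceae in control mice 2, 3 and 4 and in model mouse 6. Of the obligate anaerobes of the gut, 18 of 23 could be tested, with a median of -1.01. Of these 18, 5 fell and 1, Verrucomicrobiaceae, rose, where 8.62% of all families tested were called lower and 8.62% higher. Verrucomicrobiaceae and, of the 5, Clostridiaceae passed the filter through 1 group alone. The summed share of the listed anaerobes was 1.51% to 52.8% in control and 0.587% to 34.4% in model mice, so the ranges overlapped, with control mice 1 and 6 under 2% and model mouse 6 at 34.4%. Of the facultative anaerobes, 9 of 13 could be tested and 1, Enterococcaceae, rose (median 0.34), where 8.62% of all families tested were called higher, while their summed share was 16.2% to 47.3% in control and 7.20% to 26.0% in model mice. Of 4 mucus-layer families 3 could be tested, and Verrucomicrobiaceae alone rose, beside the same 8.62% called higher over all families. Without TMM scaling the median over all families was -0.16 instead of 0.60, and the lists kept their order, with medians of 3.01 for aerobes, 1.33 for facultative and -2.38 for obligate anaerobes.

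At the level of single ASVs, S24-7 gave the most lower calls, and the higher calls included enterococci, Akkermansia and [Ruminococcus]. By edgeR, 125 of 411 ASVs tested (30.4%) were called, 30 higher (7.3%) and 95 lower (23.1%) in model mice, and 48 were called without control mouse 4, 55 without control mouse 5 and 62 without control mouse 2 or 3. Most of these counts describe presence: 94 ASVs reached 10 counts in control mice only and 31 in model mice only, and such an ASV passed the filter through the group in which it was high and could hardly fail to differ. They hold 110 of the 125 calls (86 and 24). Among the 286 ASVs that reached 10 counts in at least 1 mouse of each group, 15 were called (5.24%), 6 higher and 9 lower. The ASVs tested held 48.8% to 93.6% of the counts of a mouse.

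The 95 ASVs called lower were spread unevenly over the control mice. All 95 had counts in control mouse 5, 92 in mouse 4, 85 in mouse 2, 81 in mouse 3, 52 in mouse 1 and 13 in mouse 6. Model mice held 1 to 15 of them. Control mouse 6 was thus within the range of the model mice by number, but not by summed share, which was 1.79% in control mouse 6, 13.8% to 57.1% in the other control mice and 0.00498% to 0.272% in model mice. Of the 30 ASVs called higher, model mice held 18 to 28 and control mice 1 to 6, the most in control mouse 6, and their summed share was 2.30% to 43.9% in model and 0.00956% to 0.544% in control mice. These ASVs were chosen by the same counts, so the sums are a description.

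S24-7 held 47 of the 95 lower calls and none of the higher, among 64 of its ASVs tested, against 23.1% lower over all ASVs. Of the 47, 45 passed the filter through control mice alone, and 2 of the 14 ASVs that reached 10 counts in both groups were called. Of the 64, 38 had 0 counts in all 6 model mice, and the median log2 fold change was -8.07. The 47 ASVs had counts for 46 or 47 of them in control mice 2 to 5, for 15 in control mouse 1 and for 4 in control mouse 6, and in model mice 3, 4 and 5 for 0. S24-7 ASV 1, the commonest, was at 0.0191%, 1.51%, 5.16%, 2.54%, 0.577% and 0.0383% in control mice 1 to 6 and had 24 counts in model mouse 1, 5 in model mouse 6 and 0 in the other model mice (log2 fold change -6.95, SE 2.67, edgeR adjusted p = 0.032). This call was lost without control mouse 3 or 4 or model mouse 2, 3, 4 or 5 (adjusted p = 0.0507 to 0.0716). S24-7 ASV 2 had counts in all 6 control mice and 7 counts in model mouse 1 alone, and its shares did not overlap between the groups (log2 fold change -9.45, SE 2.97, edgeR adjusted p = 0.0062). S24-7 ASV 3 and ASV 4 had 0 counts in every model mouse, at least 320-fold and at least 317-fold below the control means of 0.991% and 0.980%, or at least 112-fold and at least 200-fold without the highest control mouse. Among the S24-7 counts left in model mice, the commonest ASV was another: in the 4 model mice with at least 100 counts of the family, S24-7 ASV 33 made up 33.7% of the family on average, with 0% to 79.6%, and it had counts in 1 control mouse (not called, log2 fold change 2.51, edgeR adjusted p = 0.423).

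**Figure D3:**
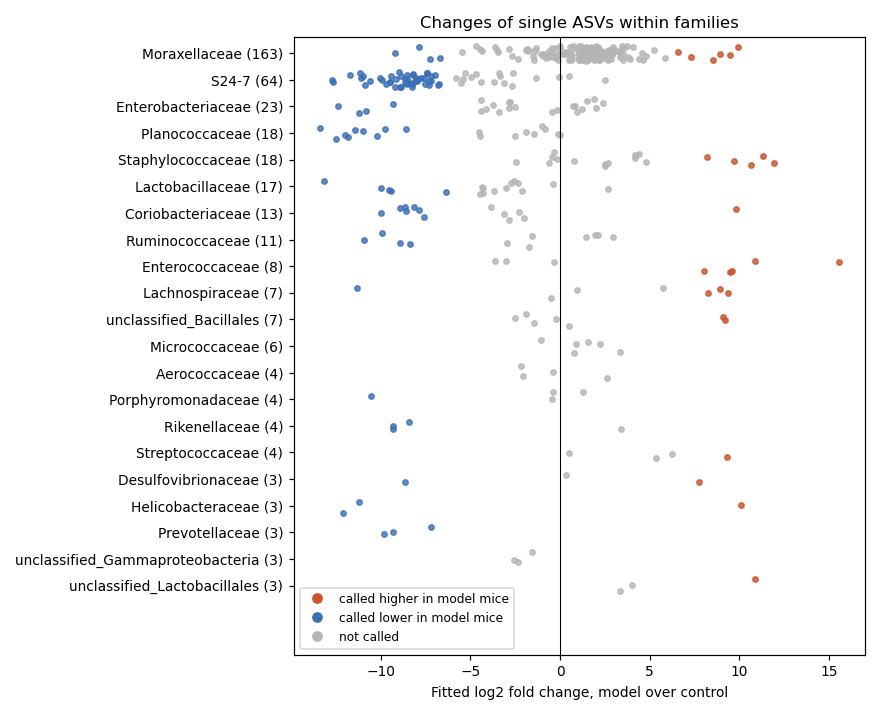
Fitted log2 fold change (model over control) of single ASVs, as points, in the families with at least 3 ASVs tested (number in parentheses); vertical scatter within a family is random. S24-7 and Planococcaceae have lower calls (blue) and no higher ones, Enterococcaceae and Staphylococcaceae higher calls (orange) and no lower ones, and Moraxellaceae, with 163 ASVs, has 6 higher and 4 lower.

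Moraxellaceae had the most ASVs tested, 163, of which 6 were called higher (3.68%, against 7.3% of all ASVs) and 4 lower (2.45%, against 23.1%). Of the 163, 155 reached 10 counts in mice of both groups, and 1 of these was called higher and 3 lower. Over all ASVs of that kind, 5.24% were called in either direction. Acinetobacter ASV 1, assigned to Acinetobacter lwoffii, held 24.5% of the counts in control mouse 6 and 0.0131% to 1.80% in the other control mice, and 21.0% to 43.0% in model mice 1 to 5 against 0.0618% in model mouse 6. Its means were 4.61% ± 9.78 (SD, n = 6) and 27.9% ± 16.1 (SD, n = 6), and it was not called (log2 fold change 2.36, SE 2.01, edgeR adjusted p = 0.423). The 4 ASVs called lower, Acinetobacter ASV 5, 26, 31 and 44, had most of their control counts in 1 mouse each: ASV 5 was at 11.9% in control mouse 1, at 0.195% and 0.0478% in control mice 5 and 6, and at 0% in the other control mice. Its log2 fold change of -9.19 was -3.77 with centred log-ratios (adjusted p = 0.0923). The 6 called higher, Acinetobacter ASV 21, 46, 79, 87, 101 and 164, had 0 counts in model mouse 6 and, except ASV 21 with 37 counts in control mouse 6, in every control mouse. Acinetobacter ASV 21 had 2412 of its 2661 model counts in model mouse 2, and its call was lost without that mouse (log2 fold change 2.25, adjusted p = 0.457), without model mouse 5 or any of control mice 1 to 5 (adjusted p = 0.0545 to 0.284) and without TMM scaling (adjusted p = 0.0731). Psychrobacter ASV 1, of the same family, did not overlap between the groups, at 0% to 0.226% in control and 0.427% to 6.20% in model mice, but was just short of a call (log2 fold change 5.87, SE 2.51, edgeR adjusted p = 0.0622).

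Planococcaceae and Lactobacillaceae had lower calls only, 9 of 18 and 5 of 17 ASVs tested, against 23.1% of all ASVs. Of these calls, 8 and 4 passed the filter through control mice alone. Among ASVs that passed it through mice of both groups, 1 of 10 and 1 of 11 were called, against 5.24% of all such ASVs. Planococcaceae ASV 1 was at 9.79%, 21.9%, 0%, 20.2%, 0.883% and 0% in control mice 1 to 6, and model mouse 5 alone had counts of it, at 0.0508% (log2 fold change -11.00, SE 2.96, edgeR adjusted p = 0.0055). The Sporosarcina that filled model mouse 6 was thus another member of the family. Lactobacillus ASV 4, assigned to Lactobacillus helveticus, was at 0.0464% to 2.46% in control mice 1 to 5 and at 0 counts in control mouse 6 and every model mouse, at least 285-fold below the control mean (at least 184-fold without the highest control mouse, edgeR adjusted p = 0.0055). Lactobacillus ASV 2, the most evenly spread, had counts in all 12 mice, at 0.507% to 9.07% in control and 0.109% to 1.28% in model mice, and was not called (edgeR adjusted p = 0.401). Enterobacteriaceae had 4 lower calls among 23 (17.4%, against 23.1% of all ASVs), 2 of them through control mice alone, and all 4 among 11 in Ruminococcaceae were of that kind.

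Enterococcaceae and Staphylococcaceae had higher calls only, 5 of 8 and 5 of 18, against 7.3% of all ASVs. All 5 in Enterococcaceae and 4 of the 5 in Staphylococcaceae passed the filter through model mice alone, so these counts describe presence. Enterococcus ASV 1 had 0 counts in every control mouse and 85, 5464, 754, 179, 8758 and 3032 counts in model mice 1 to 6, so that its mean of 3.06% was at least 689-fold above the limit of the control mice, or at least 449-fold without model mouse 5 (edgeR adjusted p = 0.0032). The enterococci of control mouse 5, 1.69% of its counts, were thus of other ASVs. Jeotgalicoccus ASV 1 (Staphylococcaceae), assigned to Jeotgalicoccus psychrophilus, was at 0% to 0.224% in control and 0.198% to 9.13% in model mice, with control mouse 6 above model mouse 3 (log2 fold change 8.22, SE 2.67, edgeR adjusted p = 0.0083). Its call was lost without model mouse 6, control mouse 1 or control mouse 4 (adjusted p = 0.053 to 0.058). Staphylococcus ASV 1, assigned to Staphylococcus sciuri, had counts in all 12 mice and was not called, at 1.94% ± 2.32 (SD, n = 6) and 2.90% ± 2.49 (SD, n = 6).

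**Figure D4:**
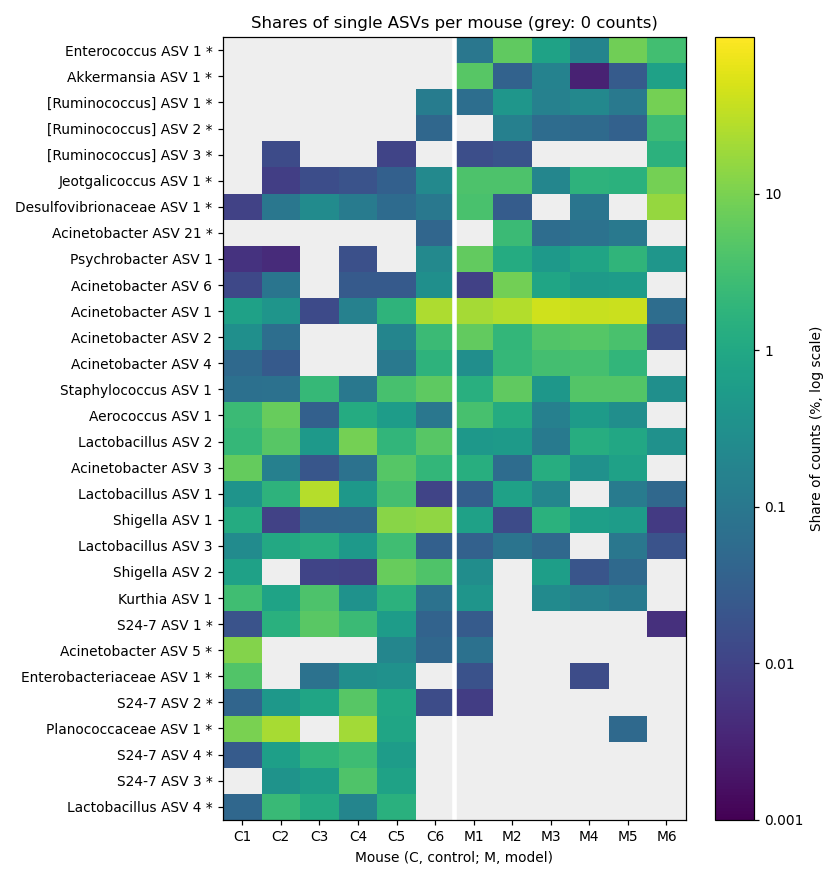
Share of counts (%, log colour scale) of the 30 named ASVs in each control mouse (C1 to C6) and model mouse (M1 to M6), in order of the fitted log2 fold change; grey marks 0 counts and an asterisk an ASV called by edgeR. Enterococcus ASV 1 and Akkermansia ASV 1 are present in M1 to M6 and grey in C1 to C6, and S24-7 ASV 3, S24-7 ASV 4 and Lactobacillus ASV 4 are grey in M1 to M6.

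In 5 of the 38 families with a tested ASV, ASVs were called in both directions: Moraxellaceae, Coriobacteriaceae, Lachnospiraceae, Desulfovibrionaceae and Helicobacteraceae. Among ASVs that passed the filter through mice of both groups, Moraxellaceae alone had calls both ways, 1 higher and 3 lower. Coriobacteriaceae and Helicobacteraceae had 0 calls of that kind. The lower calls of Lachnospiraceae and Desulfovibrionaceae passed the filter through control mice alone. Of 25 families with a call, 8 had higher calls only and 12 lower calls only. These numbers include calls that passed the filter through 1 group alone, which describe presence. In Helicobacteraceae, where the family itself was not called, each of the 3 ASVs tested had counts in 1 group only. They held 85.2% of the family's counts in control and 48.0% in model mice. Helicobacteraceae ASV 1 had 58, 383, 1350, 316, 73 and 753 counts in control mice 1 to 6, and Helicobacter ASV 1 had 47, 267, 356, 89, 40 and 515, and neither had a count in any model mouse. Helicobacter ASV 2 had 0 counts in all control mice and 264, 11, 236, 0, 0 and 53 in model mice 1 to 6. Helicobacteraceae ASV 1 and Helicobacter ASV 1 were the 2 ASVs among 7652 present in all control mice, control mouse 6 included, and absent from all model mice, and they were at least 214-fold and at least 93.8-fold lower in model mice (edgeR adjusted p = 0.0055 for both). Both passed the filter through control mice alone and could hardly fail to be called, so this p describes presence.

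In Coriobacteriaceae, Actinobacteria that transform bile acids and plant phenols, 7 of 13 ASVs were called lower, against 23.1% of all ASVs, while the family itself was not called (log2 fold change -1.98, edgeR adjusted p = 0.264). All 7 passed the filter through control mice alone and had 0 counts in every model mouse. They included Adlercreutzia ASV 1, with 19, 49, 342, 76, 158 and 0 counts in control mice 1 to 6, and control mouse 6 was at 0 for all 7. Adlercreutzia ASV 10 was the reverse, with 41, 27, 8, 5, 10 and 83 counts in model mice 1 to 6 and 0 in every control mouse (at least 6.80-fold, or at least 4.44-fold without model mouse 6, edgeR adjusted p = 0.0055). It passed the filter through model mice alone, so all these calls describe presence.

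In Lachnospiraceae, butyrate formers for the most part, Lachnospiraceae ASV 1 had 10 to 892 counts in control mice 1 to 5 and 0 in control mouse 6 and every model mouse. [Ruminococcus] ASV 1 had 0 counts in control mice 1 to 5, 103 in control mouse 6, and 57, 391, 163, 206, 112 and 9110 in model mice 1 to 6 (log2 fold change 9.36, SE 2.81, edgeR adjusted p = 0.0055). Without model mouse 6 the change was 3.42 (adjusted p = 0.300) and without control mouse 4 it was 7.12 (adjusted p = 0.0503), while without both mice numbered 6 it was 10.37 (adjusted p = 0.0021). [Ruminococcus] ASV 3, assigned to the mucus-degrading [Ruminococcus] gnavus, had 1642 of its 1674 model counts in model mouse 6, and its call was lost without control mouse 1, 3, 4 or 5 (adjusted p = 0.0586 to 0.104), without TMM scaling (log2 fold change 6.03, adjusted p = 0.0754) and with centred log-ratios (log2 difference 2.04, adjusted p = 0.369). Erysipelotrichaceae had 2 ASVs tested, both called higher (against 7.3% of all ASVs) and both past the filter through model mice alone: Allobaculum ASV 5, with 5 to 119 counts in all 6 model mice and 0 in control mice, and Clostridium ASV 1, assigned to Clostridium ramosum, with 3 and 4 counts in control mice 3 and 6 and 227, 441, 232, 3, 16 and 0 in model mice 1 to 6 (log2 fold change 7.23, SE 2.69, edgeR adjusted p = 0.026).

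Desulfovibrionaceae ASV 1 was called higher (log2 fold change 7.77, SE 2.59, edgeR adjusted p = 0.010) although all 6 control mice held it, at 0.00956% to 0.258%, and 2 model mice did not. The rise was in model mouse 6, at 16.3%, and model mouse 1, at 3.66%, while model mice 2 and 4 were at 0.0281% and 0.0891%. Without model mouse 6 the log2 fold change was 3.01 (adjusted p = 0.352), the call was also lost without control mouse 1, 4 or 5 (adjusted p = 0.0528 to 0.0802), and the sign turned on the centred log-ratio scale (-0.081). The call was lost without TMM scaling as well (log2 fold change 4.97, edgeR adjusted p = 0.0674). Desulfovibrio ASV 4 of the same family had 6 to 102 counts in control mice 1 to 5 and 0 in control mouse 6 and every model mouse (at least 18.6-fold lower, edgeR adjusted p = 0.0055). This ASV passed the filter through control mice alone, so its call describes presence.

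Presence itself was compared over all 7652 ASVs, tested or not. Of these, 4169 occurred in control mice only, 2498 in model mice only and 985 in both, and 70.7% were seen in 1 mouse. The 985 shared ASVs held 73.6% of the counts of control mice (59.3% to 95.1%) and 80.2% of those of model mice (44.5% to 94.8%). In all 6 model mice and no control mouse there were 9 ASVs, or 8 with presence from 2 counts and 6 at even depth. They were Akkermansia ASV 1, Enterococcus ASV 1, Enterococcaceae ASV 1 and ASV 2, Staphylococcaceae ASV 1, Allobaculum ASV 5, Streptococcus ASV 3, Adlercreutzia ASV 10 and an ASV of Lactobacillales with no family. In all 12 mice there were 8 ASVs, among them Acinetobacter ASV 1, Staphylococcus ASV 1, Lactobacillus ASV 2 and Shigella ASV 1. ASV shares were wholly above the control mice in 11 of 411 (2.68%) and wholly below in 4 (0.973%).

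Of 169 families, 16 were seen in control mice only, 61 in model mice only and 92 in both. Model mice had more counts per mouse, and the families seen in model mice only were mainly those of model mouse 2, with 38 of them and 22 in no other mouse, and model mouse 6, with 26 and 12. The other model mice held 4 to 14. Their counts were 1.85% of the total in model mouse 2 and 0.920% in model mouse 6, and the 5.54% in model mouse 1 was almost wholly Verrucomicrobiaceae, with 4698 counts.

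The number of ASVs within families was compared in the authors' table of even depth, 39768 counts in every mouse. Of 78 families with counts in at least 4 mice, 0 passed an adjusted p of 0.05 by exact permutation test (0%, smallest adjusted p = 0.0844), and 12 had an unadjusted p under 0.05, 5 with more and 7 with fewer ASVs in model mice. S24-7 had 41, 621, 667, 503, 217 and 21 ASVs in control mice 1 to 6 and 44, 15, 10, 1, 8 and 26 in model mice 1 to 6. Control mice 1 and 6 were thus within the range of the model mice, and the means were 345 ± 289 (SD, n = 6) and 17.3 ± 15.5 (SD, n = 6; exact permutation test, two-sided, p = 0.011, adjusted p = 0.193). Coriobacteriaceae had 20.2 ± 14.1 and 4.83 ± 2.79 ASVs (SD, n = 6 each; exact permutation p = 0.0433) and Rikenellaceae, anaerobes of the Bacteroidetes, 15.3 ± 8.14 and 3.67 ± 3.44 (SD, n = 6 each; exact permutation p = 0.0173). Lactobacillaceae had 59.2 ± 32.0 and 26.3 ± 7.79 (SD, n = 6 each; exact permutation p = 0.0541).

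More ASVs were counted in model mice for Staphylococcaceae, at 43.5 ± 17.9 against 15.2 ± 13.6 (SD, n = 6 each; exact permutation p = 0.0173), and for Enterococcaceae, at 24.7 ± 13.2 against 7.67 ± 6.83 (SD, n = 6 each; exact permutation p = 0.0281). Caulobacteraceae had 0 ASVs in control mice and 1 to 19 in model mice, and Verrucomicrobiaceae 0 and 1 to 4, the 2 families without overlap in richness (2.56%), both at the smallest possible exact p of 0.00216 and adjusted p of 0.0844. Moraxellaceae had the most ASVs in model mice, with 10 to 420 against 6 to 411 in control mice (exact permutation p = 0.364).

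The number of ASVs in a family follows its counts, so the number expected in 100 counts of a family was also computed, over mice with at least 100 counts. S24-7 then had 39.6 ± 13.4 ASVs in 6 control mice and 20.9 ± 10.03 in 4 model mice (exact permutation p = 0.0476, adjusted p = 0.286), and Erysipelotrichaceae 20.4 ± 6.84 in 3 and 9.08 ± 1.30 in 5 (exact permutation p = 0.0357). Streptococcaceae went the other way, with 5.10 ± 1.07 in 5 control and 9.90 ± 3.93 in 5 model mice (exact permutation p = 0.0159). These were the 3 of 18 families with an unadjusted p under 0.05 (16.7%), and 0 passed after adjustment (0%). Lactobacillaceae differed by 0.745 ASVs at 100 counts (exact permutation p = 0.764), against -32.8 at even depth.

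**Figure D5:**
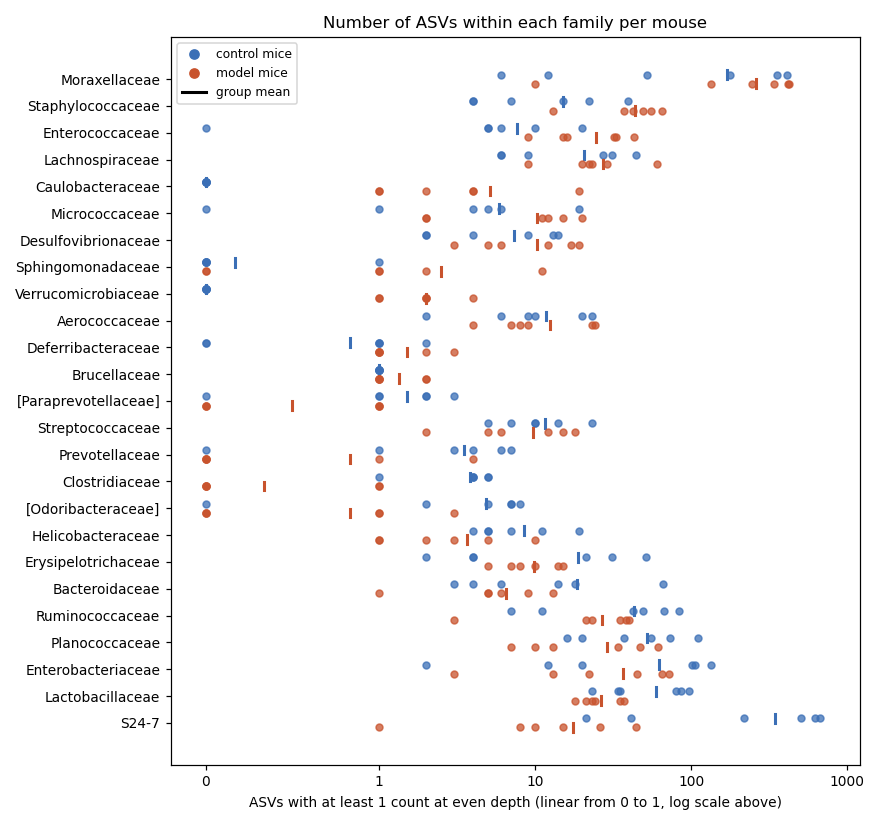
Number of ASVs with at least 1 count in each of 25 named families at 39768 counts per mouse (axis linear from 0 to 1 and logarithmic above), for each control mouse (blue) and model mouse (orange), in order of the difference in means, with bars at the group means. S24-7 has 217 to 667 ASVs in 4 control mice, 21 and 41 in the other control mice and 1 to 44 in the model mice.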

How the data were processed

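Fecal 16S rRNA gene reads of 6 control and 6 model mice were analysed. The authors merged reads (FLASH), filtered them (QIIME) and removed chimeras (UCHIME), per their methods, and their submitted processing notes name cutadapt; their read log also lists a denoising step whose tool is not given in the sources used here, nor is the version of the taxonomy. The methods describe operational taxonomic units grouped by similarity, while the deposited tables name ASVs, and which step gave them was not settled. The deposited tables hold raw counts per ASV, unfiltered, without singletons (used here) and rarefied to 39768 counts per mouse. The members and lists were chosen with earlier results of these data known.

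Counts per family and per ASV (at least 10 counts in at least 4 of 12 mice) were tested with edgeR 4.0.16 (TMM, quasi-likelihood, Benjamini-Hochberg over all features). Shares and ASV numbers were compared by two-sided exact permutation tests (scipy 1.17.1). Wilson intervals are at 95%. A difference is called at an adjusted p under 0.05. Families were named, among those tested, for a mean share of at least 1% in either group, a call, or the mucus-layer list. ASVs were named, among those tested, for a mean share of at least 1% in either group, or as 1 of the 8 called ASVs with the largest rise or fall in mean share. The commonest ASV of model mouse 6, a Sporosarcina, was not tested and so not named. Further ASVs, in families with calls both ways, in families whose every call is named, or present in all mice of a group, were chosen after their values were seen. "At least" folds set 3 counts per mouse for a group at 0. Columns were matched to mice through the sample descriptions, whose numbers differ from the titles' for model mice 4, 5 and 6 (columns 5, 6 and 8). Replicate numbers did not pair the mice. Alternatives were unscaled totals, singleton-paired TMM, DESeq2 1.42.0, centred log-ratios with limma 3.58.1 (0.5 added), no filter, a minimum of 50 counts, the other tables, all 30 mice, totals without Moraxellaceae, a replicate block, and each mouse left out. Procedures were tested on simulated data.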

Additional observations from a re-analysis of the deposited data

Results flagged for a closer look

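In 96 groups of 6 mice, made of the shares and the even-depth ASV numbers of the named families, 31 held a mouse far from the others of its group by Dixon's criterion (the gap to the nearest mouse over the whole range), where chance gives about 1 in 20 for normally distributed values, which these skewed shares and counts with many zeros are not. The mice concerned were most often model mouse 2 (7), model mouse 1 (6), and model mouse 6 and control mouse 2 (5 each).

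Model mouse 6 was far above the other model mice in Planococcaceae (42.0%), Desulfovibrionaceae (17.7%), Lachnospiraceae (14.6%) and Streptococcaceae (2.67%), and in [Paraprevotellaceae] at a low share (0.0120%). Model mouse 1 was so in Verrucomicrobiaceae (5.36%, and 4 ASVs), Aerococcaceae (4.28%), Ruminococcaceae (2.01%) and Helicobacteraceae (0.828%), and in the number of [Odoribacteraceae] ASVs (3). Model mouse 2 was so in Caulobacteraceae (3.63%, and 19 ASVs), Brucellaceae (3.21%), Sphingomonadaceae (0.410%, and 11 ASVs) and Prevotellaceae (0.0195%, and 4 ASVs).

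Among control mice, mouse 2 was far above the others in Bacteroidaceae (7.80%, and 66 ASVs), Aerococcaceae (7.73%) and [Paraprevotellaceae] (0.993%), and below them in the number of Clostridiaceae ASVs (1). Control mouse 3 stood apart in Lactobacillaceae (36.2%), control mouse 4 in Lachnospiraceae (3.84%), control mouse 5 in Enterococcaceae (1.69%) and Sphingomonadaceae (0.0162%, and 1 ASV), and control mouse 6 in Micrococcaceae (0.727%, and 19 ASVs) and Deferribacteraceae (0.0430%).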

How the results depend on the processing

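The number of called families, 10 of 58, was 16 with DESeq2 (7 of the 10 among them; 7 of the 10 were also called without TMM scaling and 8 with centred log-ratios), 20 with all 30 mice in 1 model, 21 without both mice numbered 6 (an alternative chosen after seeing the data) and 7 to 24 with each mouse left out in turn, and of the 8 to 10 of them that could be tested under these, none changed sign. The number of called ASVs, 125 of 411, was 46 of 146 tested with a minimum of 50 counts. Of the 125, 39 could be tested there and 38 were called. The number was 0 with no filter (7652 ASVs, 2820 of them with an unadjusted edgeR p under 0.05) and 48 to 173 with each mouse left out in turn. Same-numbered mice of the groups deviated together with correlations of -0.50 to 0.19 over families and -0.64 to 0.26 over ASVs, so the numbers did not pair the mice, and with a replicate block 4 families and 14 ASVs were called (S24-7 -4.41, adjusted p = 0.1197; [Ruminococcus] ASV 3 1.28, 0.715; Acinetobacter ASV 5 -6.15, 0.060). Among differences called in either setting, signs turned for Planococcaceae without both mice numbered 6 (-3.01) and for Desulfovibrionaceae ASV 1 with centred log-ratios (-0.081) and with the replicate block (-1.61), and the cause was not tested. The median log2 fold change over ASVs was -0.12, and 0.50 without TMM scaling. Of all ASVs, 70.7% were seen in 1 mouse, and how far depth sets this was not tested.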
